A study of Mus musculus with 12 samples.

Results

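The genotype comparison set the hippocampus of 4 5xFAD mice that received vehicle against that of 4 non-transgenic littermates that received vehicle. All mice with these group names were taken, which gave 8 of the 12 mice of the series, and every gene whose mean over all 12 mice reached 20 was tested, which gave 695 of the 756 genes in the table. The series asked how TPPU, an inhibitor of soluble epoxide hydrolase, acts on brain inflammation in such mice. Its remaining group, 4 5xFAD mice given TPPU at 3 mg/kg in drinking water, entered here only the filter and the estimate of spread. The Tg vehicle mice carried the 5xFAD transgenes and drank water with 1% polyethylene glycol 400, the solvent of the drug. The N-Tg vehicle mice lacked the transgenes and drank the same solvent. Treatment lasted 2.5 months from 2 months of age, the labels call the mice male, and each sample is the total RNA of the hippocampus of 1 mouse.

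The 5xFAD mouse carries human genes mutated in inherited Alzheimer's disease under a Thy1 promoter, which drives them in neurons, and it deposits amyloid plaques early in life. Microglia, the resident macrophages of the brain, gather at plaques and switch from a surveying state with receptors such as P2ry12 to a phagocytic, lysosome-rich state that depends on the receptor Trem2 and its adaptor Tyrobp. Astrocytes near plaques become reactive, and synapses and myelin are other compartments studied in this model. The nCounter Mouse Neuroinflammation panel counts single RNA molecules with a barcoded probe pair for each gene, without amplification. It covers microglia, astrocytes, oligodendrocytes, neurons, vessels and peripheral immune cells, together with DNA repair, chromatin, autophagy, apoptosis and growth factor genes. Values are given as normalized counts, which are probe counts scaled by the authors to housekeeping genes. In bulk hippocampus, more cells of a type and more RNA per cell cannot be told apart.

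Total probe counts ran from 1074162 to 1220728 in Tg vehicle mice and from 1156713 to 1314362 in N-Tg vehicle mice. The scale factor in the deposited values ran from 0.946 to 1.1 in Tg vehicle mice and from 0.871 to 0.993 in N-Tg vehicle mice, so the factors were mostly higher in 5xFAD mice. A check of the labelled sex went against it in part of the mice. Of the Y-linked genes Uty and Kdm5d, Uty had 366 to 518 normalized counts in 6 of the 12 mice and 15.2 to 33.5 in the other 6, and Kdm5d had 306 to 369 and 14.2 to 22.8 in the same mice. Tg vehicle mice 3 and 4 and N-Tg vehicle mice 1 and 4 had the high counts, so each group compared held 2 mice of either kind. Ttr, a marker of choroid plexus, had 4269.7, 100.4, 82.8 and 121 normalized counts in Tg vehicle mice 1 to 4, against 145, 284, 77.1 and 16461 in N-Tg vehicle mice 1 to 4. It was high in Tg vehicle mouse 1 and N-Tg vehicle mouse 4, so the mice with high Ttr were split between the groups. The excitatory neuron marker Slc17a7 had 12304 to 20040.0 normalized counts in Tg vehicle mice and 14658 to 18587 in N-Tg vehicle mice, whereas Slc17a6, the transporter of thalamic and brainstem neurons, had 1058 to 3186 in Tg vehicle mice and 474 to 2719 in N-Tg vehicle mice. Of the choroid plexus and regional genes, 0 of 6 were called.

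In Tg vehicle mice 130 genes were higher and 0 were lower than in N-Tg vehicle mice at an adjusted p under 0.05, by limma with Benjamini-Hochberg adjustment over the 695 genes. This was 18.7% of the genes tested in the upward direction and 0.0% in the downward direction. At an unadjusted p under 0.05, 195 genes were higher and 7 lower. The called genes were higher by a median of 2.42-fold, and 92 of them by at least 2-fold, 27 by at least 4-fold and 7 by at least 8-fold. All 4 Tg vehicle mice lay above all 4 N-Tg vehicle mice in 150 genes, 21.6% of those tested, and below them in 1 gene, 0.144% of those tested. Of the 130 called genes, 122 had such separate groups. Over all 695 genes 502 changes were positive and 193 negative, with a median log2 change of 0.13.

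That lean bears on every direction given here. The median of all genes on an array was 0.284 higher on the log2 scale in Tg vehicle than in N-Tg vehicle mice, and centring each array on its median moved the median change of the tested genes to -0.15. With centring, 102 genes were higher and 88 lower (14.7% and 12.7% of those tested). With quantile normalization the split was 80 higher and 104 lower (11.5% and 15% of those tested). All 102 and all 80 were among the 130. Changes are given on the authors' scale.

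**Figure D1:**
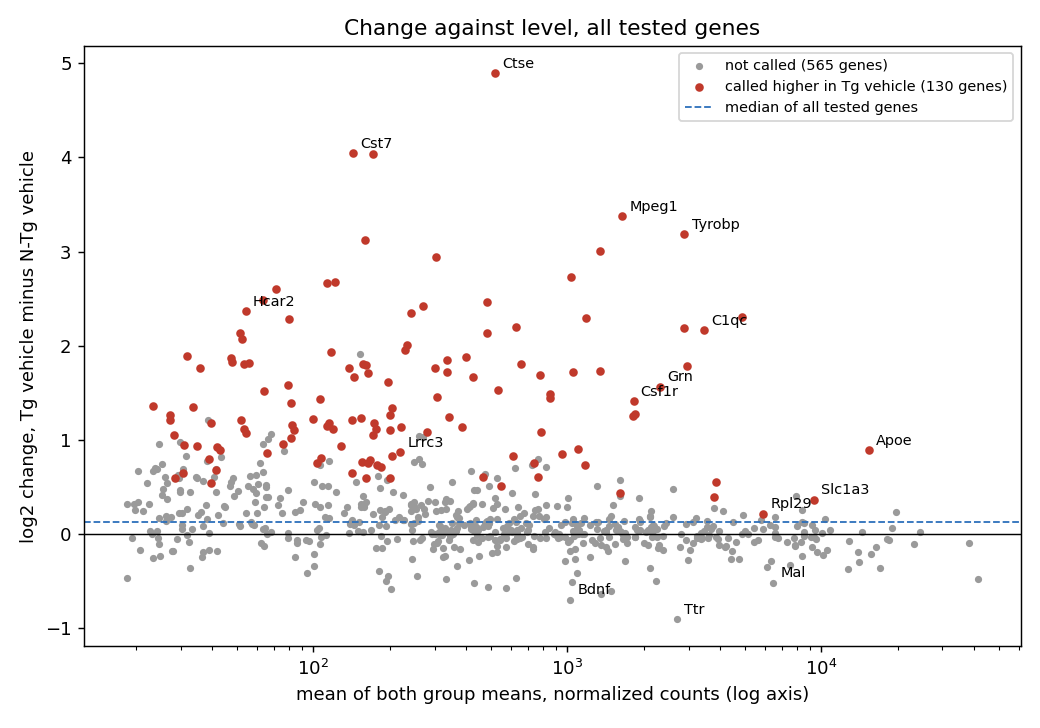
Each point is 1 of the 695 tested genes, with the mean of the Tg vehicle and N-Tg vehicle means in normalized counts on the x axis (log scale) and its log2 change, Tg vehicle minus N-Tg vehicle, on the y axis. The 130 called genes all lie above 0 and span low and high mean counts, and no gene with a negative change passed.

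Plaque-associated microglial genes had the highest median of the 33 gene lists, and 14 of 16 rose (median log2 change 2.15, against 0.13 over all genes tested). Cst7, an inhibitor of lysosomal cathepsins, had 108, 298, 451 and 234 normalized counts in Tg vehicle mice 1 to 4, against 18.3, 15.9, 12.5 and 9.54 in N-Tg vehicle mice 1 to 4. Clec7a, the receptor dectin-1, had 168, 334, 658 and 144 in Tg vehicle mice, against 12.2, 10.9, 24.2 and 18.1 in N-Tg vehicle mice. The N-Tg vehicle values of both genes lay at or below the highest of the lower Y-linked counts, so the folds of 16.5 and 16.3 rest on very few counts in these mice. Tyrobp, the adaptor of Trem2, had a well measured base. Its values were 2577, 5491, 8726 and 4211 in Tg vehicle mice and 586, 476, 513 and 532 in N-Tg vehicle mice, a 9.07-fold difference (log2 change 3.18 ± 0.52 SE, n = 4 each, limma adjusted p = 0.00215). Trem2 was 8.04-fold higher (adjusted p = 0.00204). Igf1 and Fabp5 were the members that did not pass.

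Homeostatic microglial genes were higher as well, with 11 of 16 called (median log2 change 0.87), and 9 under either other scaling. Olfml3, a secreted protein typical of microglia, averaged 1201 ± 404 normalized counts in Tg vehicle mice and 356 ± 31.1 in N-Tg vehicle mice (SD, n = 4 each). Csf1r, the receptor that microglia need for survival, rose by 2.67-fold (adjusted p = 0.00204). The summed level of the defining microglial markers P2ry12, Tmem119, Cx3cr1 and Csf1r ran from 6257 to 9909 in Tg vehicle mice and from 3157 to 3626 in N-Tg vehicle mice. These ranges did not overlap. How much of the change in other microglial genes went with this higher marker level was not tested.

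The list of inhibitory immune receptors, a class that dampens signalling in myeloid cells and lymphocytes, rose in 10 of 14 members (median log2 change 1.67), and these 10 also passed under each of the other scalings. Slamf9 was put in this list as a receptor of the SLAM family, and whether it is inhibitory was not tested. It had 212, 197, 300.2 and 141 normalized counts in Tg vehicle mice 1 to 4 and 40.1, 30.8, 33.2 and 22.9 in N-Tg vehicle mice. Siglecf, which binds sialic acid and carries inhibitory motifs, had 70.9, 170.4, 158 and 95.8 in Tg vehicle mice and 19.2, 15.9, 17.02 and 21.9 in N-Tg vehicle mice. Lilrb4a, a leukocyte immunoglobulin-like receptor, had 119, 168, 356 and 149 in Tg vehicle mice and 34.8, 21.8, 25.98 and 29.6 in N-Tg vehicle mice. All 3 genes separated the groups, with N-Tg vehicle means at or below the highest of the lower Y-linked counts, 33.5. Lag3, best known as an inhibitory receptor of T cells, averaged 375 ± 109 in Tg vehicle mice and 90.2 ± 11.5 in N-Tg vehicle mice (SD, n = 4 each, adjusted p = 0.00204). The T cell markers Cd3d, Cd3e and Cd8a summed to 45.4 to 50.9 normalized counts in Tg vehicle mice and 30.5 to 49.6 in N-Tg vehicle mice, and these ranges overlapped. For a sum over 3 probes these counts are low beside the 33.5 of 1 probe above, so the overlap cannot show whether T cells changed.

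Fc receptors and the kinases below them formed the next group. Of the Fc receptor and tyrosine kinase genes, 14 of 18 rose (median log2 change 1.22). Fcgr2b, the inhibitory Fc receptor for IgG, rose by 5.51-fold, and Fcer1g, the signalling chain shared by activating Fc receptors, by 4.39-fold. Btk, a cytoplasmic kinase of B cells and myeloid cells, had 68.1, 107, 116 and 91.8 normalized counts in Tg vehicle mice and 40.9, 28.8, 30.5 and 29.6 in N-Tg vehicle mice. Its groups were apart (adjusted p = 0.00204). Syk, the kinase that docks on Tyrobp and Fcer1g, was not among the called genes. Among the PI3-kinase, MAP kinase and Ras genes, 1 of 28 passed. It was Pik3cg, the catalytic subunit used by leukocytes, with 105, 139, 143 and 91.8 in Tg vehicle mice and 34.8, 37.7, 43.01 and 39.1 in N-Tg vehicle mice (3.00-fold, adjusted p = 0.00204). The median of that list was 0.02 on the authors' scale, and -0.27 and -0.14 under median centring and quantile normalization.

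The lysosomal protease cathepsin E had the largest change of any gene. Ctse had 463, 1237, 1780.3 and 539.9 normalized counts in Tg vehicle mice 1 to 4, against 31.4, 32.8, 17.9 and 33.4 in N-Tg vehicle mice 1 to 4 (log2 change 4.89 ± 0.77 SE, adjusted p = 0.00204). Mice 2 and 3 of the Tg vehicle group had more than mice 1 and 4. In the lysosomal list 7 of 17 rose, but its median log2 change was 0.33 on the authors' scale and 0.05 under both other scalings. The called members were Ctse, Cd68, Ctss, Man2b1, Grn, Lgmn and Lamp2. Ctss, the cathepsin that trims the class II invariant chain, had 6549.7, 8141, 11568 and 6320.5 in Tg vehicle mice and 2186, 1272, 1516 and 1553 in N-Tg vehicle mice. Grn, the precursor of the lysosomal granulins, had 3005, 3694, 4498 and 2731 in Tg vehicle mice and 1183, 1106, 1167 and 1165 in N-Tg vehicle mice, a 2.96-fold difference with N-Tg vehicle mice close together (adjusted p = 0.00204). The proton pump subunit Atp6v1a and the trafficking GTPase Rab7 were not called, with log2 changes of -0.16 and -0.06.

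Complement genes rose in 6 of 9 members (median log2 change 1.79). The chains of C1q, the recognition molecule of the classical pathway, differed in how evenly they were raised. C1qc had 5698, 5149.5, 5995 and 5765 normalized counts in Tg vehicle mice, against 1542, 1134, 1157 and 1235 in N-Tg vehicle mice. C1qa had 2854, 4613, 7556 and 4021 in Tg vehicle mice and 1186, 931, 928 and 903 in N-Tg vehicle mice. C1qc was nearly level over the Tg vehicle mice, whereas C1qa was highest in mouse 3. C3ar1, the receptor for the C3a fragment, rose by 5.35-fold, and C4a by 4.89-fold, although its probe may also read its near-identical paralogue. C3 and the C1 inhibitor Serping1 did not pass.

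**Figure D2:**
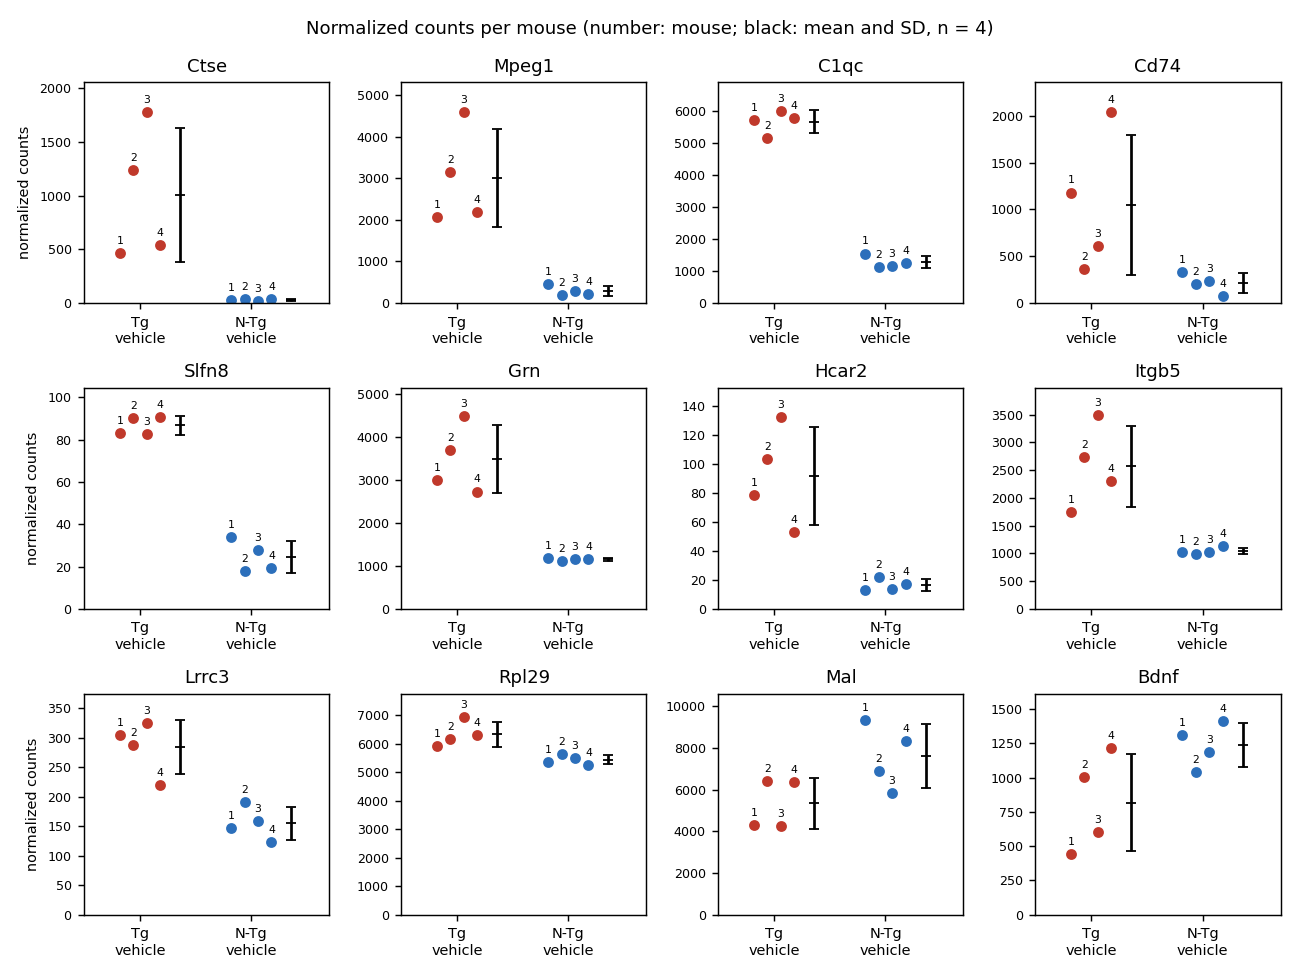
Normalized counts (y axis, linear) of 12 named genes, 1 per panel, with the 4 Tg vehicle mice to the left of the 4 N-Tg vehicle mice, each point 1 numbered mouse and the bar the mean and SD (n = 4). Ctse ran from 463 to 1780.3 in Tg vehicle mice and from 17.9 to 33.4 in N-Tg vehicle mice.

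Some genes of antigen presentation and of the interferon response had another order of mice. Cd74, the class II invariant chain, had 1180.2, 362, 609 and 2045 normalized counts in Tg vehicle mice 1 to 4, against 331, 205, 234 and 74.4 in N-Tg vehicle mice 1 to 4. Mouse 4 had the highest value and mouse 2 lay near the highest N-Tg vehicle mouse, and the call (adjusted p = 0.0248) ended without Tg vehicle mouse 1 or 4 or N-Tg vehicle mouse 2 or 4 (adjusted p 0.0527 to 0.071), and without both mice with high Ttr (adjusted p = 0.13). Psmb8, a subunit of the immunoproteasome, rose by 3.29-fold (adjusted p = 0.00227). In the antigen presentation list 5 of 9 rose (median log2 change 0.80). The count was 3 with centring, 3 with quantile normalization and 3 without any 1 of Tg vehicle mice 1, 3 and 4 and N-Tg vehicle mice 1, 2 and 3.

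Of the interferon response genes, which type I and type II interferons induce, 12 of 19 rose (median log2 change 0.83). Cxcl10, a chemokine for T cells, had 22.7, 66.9, 111 and 148 normalized counts in Tg vehicle mice and 22.6, 11.9, 14.3 and 14.3 in N-Tg vehicle mice. Irf8, a transcription factor of the myeloid lineage, averaged 367 ± 114 in Tg vehicle mice and 90.4 ± 7.60 in N-Tg vehicle mice (SD, n = 4 each). Slfn8, a Schlafen family member, had 83.2, 90.3, 82.8 and 90.8 in Tg vehicle mice and 33.97, 17.9, 27.8 and 19.1 in N-Tg vehicle mice, so it was level over the Tg vehicle mice and 3.53-fold higher than in N-Tg vehicle mice. The receptor subunits Ifnar1 and Ifnar2 and the factors Irf2 and Irf3 were not called. Among sensors of foreign or misplaced nucleic acid 4 of 9 rose, Zbp1, Tlr7, Ddx58 and Mb21d1, the last of which lost its call in 6 of the 8 fits that left out 1 mouse. Tlr7, the endosomal receptor for single-stranded RNA, had 155, 118, 125 and 78.8 in Tg vehicle mice and 36.6, 44.7, 43.01 and 50.6 in N-Tg vehicle mice. Mouse 1 was the highest for Tlr7. Ddx58, the RNA helicase RIG-I, was 1.91-fold higher, and with quantile normalization neither it nor Tlr7 passed (adjusted p = 0.164 and 0.143). In the interferon list the calls numbered 8 with centring, 6 with quantile normalization and 7 without N-Tg vehicle mouse 2, and in the nucleic acid list 3 with centring and 1 with quantile normalization.

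Promoters of these genes are shown for 2 motifs that were chosen after the changes were seen, GAGGAAGT, a form of the site of the myeloid factor PU.1, and GAAA repeated after any 2 bases, a form of the interferon-stimulated response element. Both were searched on both strands in the 300 bases from 250 before to 50 after each RefSeq start in GRCm38.p6. A gene was counted if any of its promoters held a match, so genes with more starts had more chances. The PU.1 form was found for 10.0% of 100 called genes, 3.56% of 450 tested genes that were not called and 3.69% of all 27025 genes with a promoter. The interferon form was found for 15 of the 100, for 6.0% of those not called and for 3.99% of all, and for 7 of the 10 called interferon response genes with a promoter. AP-1 (TGAGTCA) and E-box (CACGTG) letters were found for 12 of the 100 called genes each, against 6.89% and 12.9% of those not called. A match is a description of the letters, not a sign of binding. The sequences run 5′ to 3′ on the gene's strand from 250 bases before the start to 20 after it, and capitals mark the match. The first shows the PU.1 form 104 bases before the start of Bcl2a1a, at chr9:88956670-88956939 (+). That of Slamf9, at chr1:172475110-172475379 (+), has it 8 bases before the start. In Ctss, at chr3:95526536-95526805 (+), the interferon form begins 21 bases before the start. The PU.1 form, on the other strand, begins 2 bases before the start and runs past it. All distances here are to the first base of a match as printed. Cxcl10, at chr5:92348870-92349139 (-), and Tgm1, at chr14:55713473-55713742 (-), have the interferon form 213 and 242 bases before the start, in Tgm1 on the other strand.
Bcl2a1a: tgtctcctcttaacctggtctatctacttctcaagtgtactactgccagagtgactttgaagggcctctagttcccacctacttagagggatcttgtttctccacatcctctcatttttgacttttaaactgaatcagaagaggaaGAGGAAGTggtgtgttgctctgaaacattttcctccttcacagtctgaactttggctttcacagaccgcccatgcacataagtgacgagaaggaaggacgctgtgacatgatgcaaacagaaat
Slamf9: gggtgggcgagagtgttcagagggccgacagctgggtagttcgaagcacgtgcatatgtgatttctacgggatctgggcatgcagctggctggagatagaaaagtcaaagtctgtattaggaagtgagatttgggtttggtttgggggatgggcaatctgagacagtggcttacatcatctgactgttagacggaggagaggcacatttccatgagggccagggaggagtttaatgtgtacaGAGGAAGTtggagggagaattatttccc
Ctss: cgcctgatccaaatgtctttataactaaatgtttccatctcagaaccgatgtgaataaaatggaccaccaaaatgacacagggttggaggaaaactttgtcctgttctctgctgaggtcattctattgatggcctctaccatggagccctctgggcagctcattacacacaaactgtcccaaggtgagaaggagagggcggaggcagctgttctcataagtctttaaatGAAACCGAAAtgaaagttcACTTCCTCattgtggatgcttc
Cxcl10: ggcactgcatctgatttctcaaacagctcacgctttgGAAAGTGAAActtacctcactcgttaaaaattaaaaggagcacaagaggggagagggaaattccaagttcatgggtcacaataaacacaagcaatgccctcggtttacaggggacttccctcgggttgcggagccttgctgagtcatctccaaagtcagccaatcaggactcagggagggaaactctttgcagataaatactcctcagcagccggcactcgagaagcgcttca
Tgm1: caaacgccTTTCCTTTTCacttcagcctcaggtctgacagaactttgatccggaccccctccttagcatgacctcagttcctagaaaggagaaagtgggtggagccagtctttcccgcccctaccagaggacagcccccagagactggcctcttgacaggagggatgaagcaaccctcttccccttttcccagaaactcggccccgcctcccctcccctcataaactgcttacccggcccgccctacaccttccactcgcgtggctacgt

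Chemokines and their receptors rose in 7 of 11 members (median log2 change 1.11), or 4 with quantile normalization. Ccl3 and Ccl4, which draw monocytes and T cells, rose by 8.69-fold and 3.39-fold. Ccl3 had 196, 321, 459 and 176 normalized counts in Tg vehicle mice and 31.4, 24.8, 29.6 and 34.4 in N-Tg vehicle mice. Mouse 3 had the most, and the groups did not overlap. Cytokine, inflammasome and cytokine receptor genes rose in 11 of 23 members (median log2 change 0.69). The called members were mostly receptors and caspases. Osmr, the oncostatin M receptor, rose by 3.47-fold (adjusted p = 0.00361). Il1a and Il1b, the ligands of the interleukin-1 receptor, had log2 changes of 0.98 and 0.61 and did not pass. Calls in this list numbered 6 with centring, 1 with quantile normalization, 4 without Tg vehicle mouse 3 or N-Tg vehicle mouse 3 and 7 without N-Tg vehicle mouse 1. Csf3r and Casp1 lost theirs under quantile normalization (adjusted p = 0.0718 and 0.304). Leaving out 1 mouse ended the call of Csf3r in 7 of 8 fits and that of Casp1 in 4 of 8.

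In the Toll-like receptor and NF-kB list 4 of 26 rose (15.4%, below the 18.7% of all genes tested). They were the receptors Tlr2, Tlr4 and Cd14 and the kinase Irak4, which lost its call in 7 of the 8 fits that left out 1 mouse. Tlr2, the receptor for bacterial lipoproteins, rose by 4.21-fold, and Cd14, a co-receptor of Tlr2 and Tlr4, by 3.39-fold. The adaptor Myd88 and the NF-kB subunits Rela, Relb, Nfkb1 and Nfkb2 were not called, with log2 changes from -0.16 to 0.53. The median of the list was 0.10 on the authors' scale, and -0.18 and -0.23 under centring and quantile normalization, where 3 and 2 genes were called higher.

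**Figure D3:**
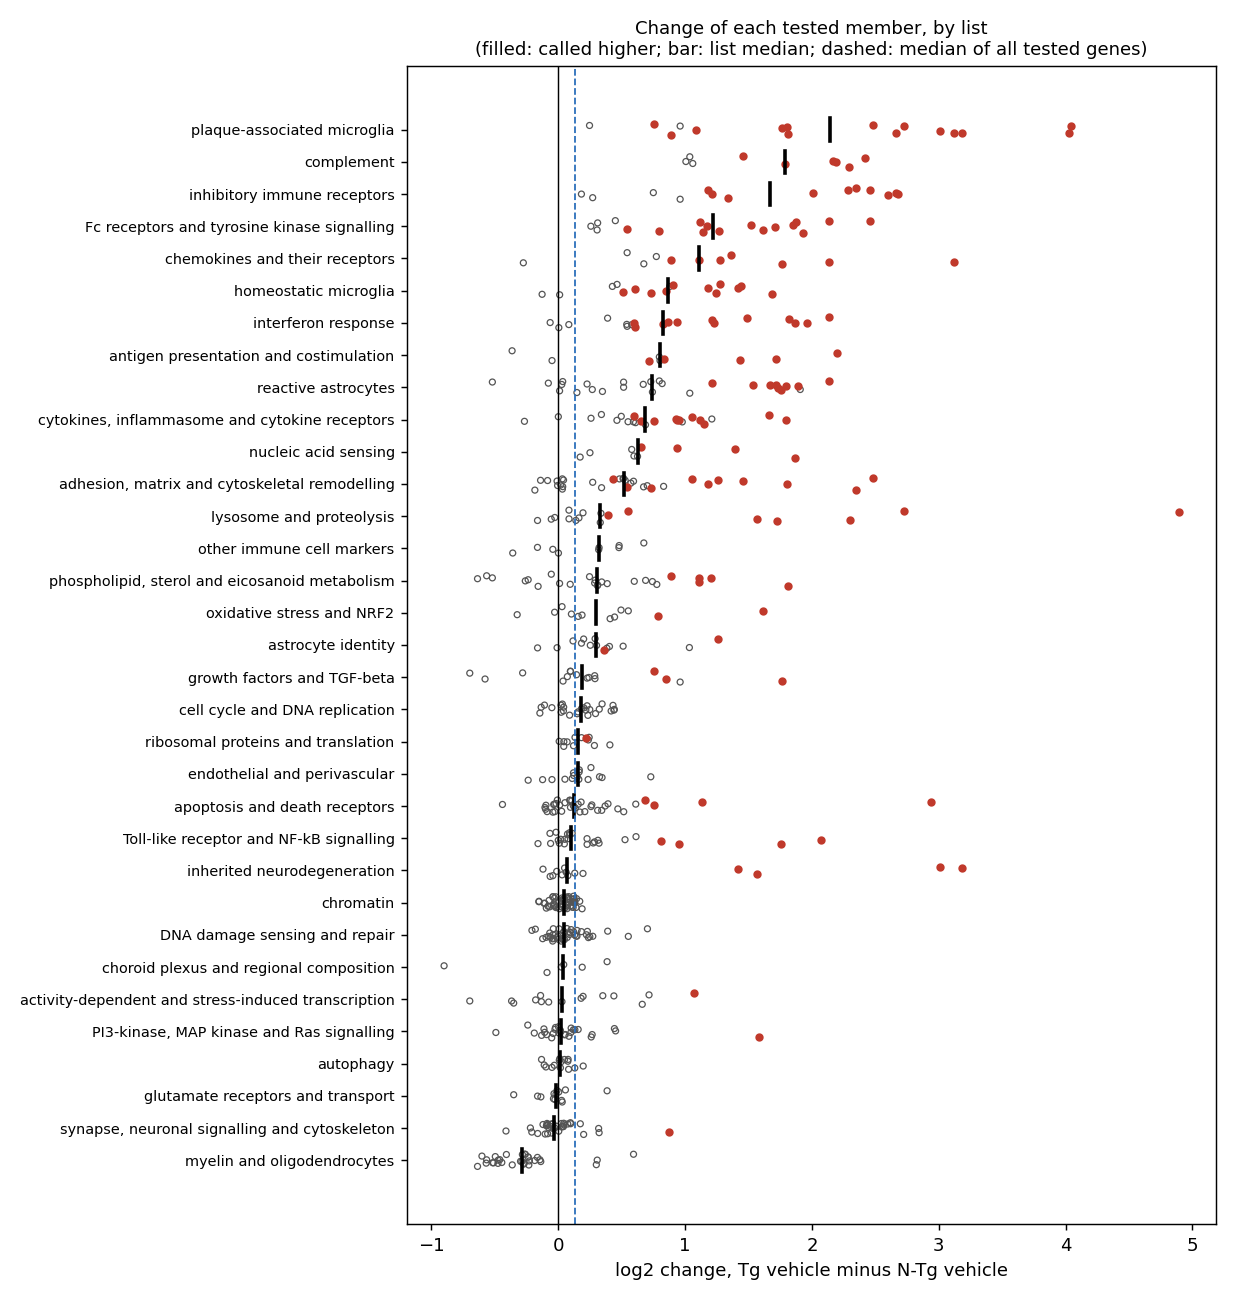
Median log2 change, Tg vehicle minus N-Tg vehicle, of the tested members of each of 33 gene lists (x axis), drawn as a bar, with each member as a point that is filled where it was called. Plaque-associated microglia stand highest at 2.15 and myelin and oligodendrocytes lowest at -0.28, against 0.13 over all tested genes.

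Among the called genes, 12 belonged to none of the 33 lists, 12.4% of the 97 such genes tested. Mpeg1, the pore-forming perforin-2 of macrophages, had 2062, 3159.9, 4604 and 2192 normalized counts in Tg vehicle mice 1 to 4, against 463, 193, 285 and 219 in N-Tg vehicle mice 1 to 4 (10.4-fold, log2 change 3.38 ± 0.58 SE, adjusted p = 0.00227). Receptors for metabolites were part of this set. Hcar2, the receptor for niacin and the ketone body beta-hydroxybutyrate, had 78.5, 103, 132 and 52.9 in Tg vehicle mice and 13.1, 21.8, 13.4 and 17.2 in N-Tg vehicle mice. Gpr84, a receptor for medium-chain fatty acids, had 66.2, 81.1, 119 and 38.9 in Tg vehicle mice and 19.2, 25.8, 15.2 and 18.1 in N-Tg vehicle mice. Both receptors separated the groups, from N-Tg vehicle counts that were low.

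Sialic acid enzymes were also in this set. Npl, a lyase that breaks down free sialic acid, had 166, 279.9, 362 and 172 normalized counts in Tg vehicle mice and 101, 129, 93.2 and 106 in N-Tg vehicle mice. St8sia6, a sialyltransferase that makes ligands for inhibitory Siglecs, had 153, 239, 281 and 176 in Tg vehicle mice and 136, 50.6, 59.1 and 140.3 in N-Tg vehicle mice. Neither passed with quantile normalization (adjusted p = 0.106 and 0.127), and St8sia6 also lost its call without Tg vehicle mouse 2 or 3 or 4 or N-Tg vehicle mouse 2 or 3 (adjusted p 0.0511 to 0.111). Igsf6, a myeloid immunoglobulin superfamily member, rose by 2.55-fold, and Pros1, the protein S that bridges phosphatidylserine on dying cells to Mertk and Axl, by 2.12-fold. Cytip, a binding partner of cytohesins in blood cells, rose by 2.41-fold and Gna15, a G protein alpha subunit of blood cells, by 2.23-fold. The remaining members, Fgl2, Trim47 and Lacc1, were higher by 2.03-fold, 1.70-fold and 1.51-fold. With quantile normalization 6 of the 12 passed, and Gna15, Fgl2, Trim47 and Lacc1 also lost their calls (adjusted p 0.102 to 0.777), Lacc1 with centring too (adjusted p = 0.137). Fgl2 lost its call without Tg vehicle mouse 3 or N-Tg vehicle mouse 2 or 4 (adjusted p 0.0575 to 0.0664), and Lacc1 without Tg vehicle mouse 1 or 3 or N-Tg vehicle mouse 1 or 4 (adjusted p 0.0512 to 0.0825).

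Of the reactive astrocyte genes 9 of 27 rose (median log2 change 0.74). At least 5 of the 9, Cxcl10, Cd14, Psmb8, Srgn and Gbp2, are also expressed by immune cells. Which cells the change in any of the 9 came from, Vim included, was not tested. Vim, an intermediate filament protein of reactive astrocytes, averaged 2092 ± 1010.2 normalized counts in Tg vehicle mice and 593 ± 121 in N-Tg vehicle mice (SD, n = 4 each, adjusted p = 0.00231), and Serpina3n, a secreted protease inhibitor, averaged 765 ± 223 in Tg vehicle mice and 298 ± 183 in N-Tg vehicle mice (adjusted p = 0.0167). Serpina3n lost its call without Tg vehicle mouse 3 or N-Tg vehicle mouse 3, and both genes were picked after their values were seen. Tgm1, a protein cross-linking enzyme, had 24.6, 59.8, 100.4 and 22.95 in Tg vehicle mice and 6.10, 14.9, 9.86 and 15.3 in N-Tg vehicle mice, and its call ended without Tg vehicle mouse 2 or 3 or N-Tg vehicle mouse 1 or 3 (adjusted p 0.0574 to 0.0705). Genes of astrocyte identity had 2 of 14 called (14.3%, below the 18.7% of all genes tested). Their median log2 change was 0.30 on the authors' scale, 0.01 with centring and 0.07 with quantile normalization. The summed markers Aldh1l1, Slc1a3 and Gja1 ran from 18460 to 25500 in Tg vehicle mice and from 14750 to 19120 in N-Tg vehicle mice. The called members were Itgb5, an integrin subunit that microglia also express, with 1748, 2734, 3489.9 and 2306 in Tg vehicle mice and 1032, 989, 1022 and 1127 in N-Tg vehicle mice, and Slc1a3, the glutamate transporter GLAST, which was 1.29-fold higher. The call of Slc1a3 ended with centring (adjusted p = 0.584) and without Tg vehicle mouse 2 or 3 or N-Tg vehicle mouse 1 or 2 or 4 (adjusted p 0.0557 to 0.081).

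Of the lipid genes 5 of 25 rose (20%, near the 18.7% of all genes tested), or 2 with quantile normalization, with a median log2 change of 0.31 that was 0.02 with centring and -0.34 with quantile normalization. Ch25h, which makes 25-hydroxycholesterol, had 44.4, 109.5, 121 and 59.9 normalized counts in Tg vehicle mice and 20.9, 17.9, 14.3 and 38.2 in N-Tg vehicle mice. Gpr183, the receptor for oxysterols made from that product, rose by 2.16-fold, and the efflux transporter Abcc3 by 2.31-fold, and neither passed with quantile normalization (adjusted p = 0.112 and 0.103). Apoe, the main lipid carrier of the brain, had 18769, 17506, 27032 and 17034 in Tg vehicle mice and 11504, 9283, 11168 and 10701 in N-Tg vehicle mice, a 1.86-fold difference (adjusted p = 0.00394).

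Myelin and oligodendrocyte genes were the list with the lowest median. None of the 31 passed, and 28 had a negative change (median log2 change -0.28). At an unadjusted limma p under 0.05, 2 were higher and 3 lower. The largest positive change was that of Itga6, an integrin subunit, at 0.59 (0.76 in the mice with high Y-linked counts and 0.43 in those with low counts). In the fits that left out 1 mouse, 1 gene was called higher without Tg vehicle mouse 1 and 1 lower without N-Tg vehicle mouse 3. Mal, a proteolipid of compact myelin, had 4292, 6424, 4278 and 6364 normalized counts in Tg vehicle mice 1 to 4, against 9357, 6909, 5832 and 8353 in N-Tg vehicle mice 1 to 4 (log2 change -0.52 ± 0.19 SE, adjusted p = 0.0793). Mice 1 and 3 of the Tg vehicle group were the low ones, and the groups overlapped. The median of the list in each mouse, relative to the mean over N-Tg vehicle mice, was -0.88, -0.03, -0.23 and -0.14 in Tg vehicle mice 1 to 4 and 0.24, -0.01, -0.24 and 0.02 in N-Tg vehicle mice 1 to 4. Mouse 1 of the Tg vehicle group was far below the others, and without it the median of the list was -0.15. With centring 22 of these genes were called lower, and with quantile normalization 17. Fa2h, an enzyme of myelin galactolipid synthesis, had a log2 change of -0.56 (adjusted p = 0.168) on the authors' scale and -0.85 with centring (adjusted p = 0.0171), and Sox10, the transcription factor of the oligodendrocyte lineage, had -0.46 (adjusted p = 0.176) and -0.75 (adjusted p = 0.0153).

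Few neuronal genes passed. Of the glutamate receptor and transport genes 0 of 13 passed, and their changes had a median of -0.02. This median was -0.30 with centring, where 12 of the 13 were negative, and -0.13 with quantile normalization. Slc17a7, the vesicular glutamate transporter of cortical and hippocampal neurons, had 12304, 20040.0, 14153 and 16627 normalized counts in Tg vehicle mice and 17180.0, 18587, 14658 and 18128 in N-Tg vehicle mice (log2 change -0.14 ± 0.19 SE). Of the synapse, signalling and cytoskeleton genes 1 of 34 passed, with a list median of -0.03, or -0.32 with centring and -0.13 with quantile normalization. Each of these scalings called 3 of the 34 lower, against 12.7% and 15% of all genes tested. The gene that passed was Lrrc3, which encodes a membrane protein with leucine-rich repeats. It had 304, 287, 324 and 219.6 in Tg vehicle mice and 146, 191, 159 and 123 in N-Tg vehicle mice (1.83-fold, adjusted p = 0.00278), and it did not pass with quantile normalization (adjusted p = 0.117). Whether the change of Lrrc3 lay in neurons was not tested. Among activity-dependent and stress-induced genes (median 0.03, or -0.25 with centring and -0.11 with quantile normalization) 1 of 15 passed, Maff, a small Maf transcription factor, at 2.10-fold. Maff did not pass with centring (adjusted p = 0.0841), with quantile normalization (adjusted p = 0.364) or without Tg vehicle mouse 3 or N-Tg vehicle mouse 1 or 2 or 4 (adjusted p 0.0595 to 0.077).

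Bdnf, the neurotrophin that activity induces in hippocampal neurons, had 445, 1002, 605 and 1218 normalized counts in Tg vehicle mice 1 to 4, against 1312, 1038, 1184 and 1413 in N-Tg vehicle mice 1 to 4. Mice 1 and 3 of the Tg vehicle group were low, mouse 2 lay just under the lowest N-Tg vehicle mouse and mouse 4 among them. Its log2 change was -0.70 ± 0.26 SE (adjusted p = 0.087), with -0.98 under centring (adjusted p = 0.0209). Leaving out Tg vehicle mouse 4 gave a log2 change of -0.93 (adjusted p = 0.0165). Among growth factor and TGF-beta genes 3 of 16 rose (18.8%, as against 18.7% of all genes tested), Tgfb1, its receptor Tgfbr1 and Csf1, the ligand of Csf1r. Tgfb1 had 269, 436, 712 and 467 in Tg vehicle mice and 158, 120.1, 125 and 121 in N-Tg vehicle mice, a 3.39-fold difference without overlap (adjusted p = 0.00229). The median log2 change of this list was 0.19 on the authors' scale and turned to -0.10 with centring and -0.22 with quantile normalization.

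Adhesion, matrix and cytoskeletal genes rose in 10 of 31 members (median log2 change 0.52), or 7 with centring and 5 with quantile normalization. They were led by leukocyte genes. Itgax, the integrin CD11c, rose by 5.59-fold, Cd84, a SLAM family receptor, by 5.09-fold and Dock2, an activator of Rac in blood cells, by 3.50-fold. The widely expressed members Rhoa, Rac1 and Itgav had log2 changes from -0.08 to 0.03 and were not called. Endothelial and perivascular genes had 0 of 16 called (median log2 change 0.16, -0.13 with centring and -0.38 with quantile normalization). The summed endothelial markers Cldn5, Pecam1, Tie1 and Emcn ran from 796 to 1196 in Tg vehicle mice and from 884 to 1139 in N-Tg vehicle mice.

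Most markers of T, NK, B and mast cells, neutrophils and border macrophages were too low to test, with 9 of 29 above the minimum and 0 called. Their median log2 change was 0.32, or -0.19 with quantile normalization. The NK cell markers Ncr1, Klrb1 and Nkg7 summed to 41.6 to 72.9 normalized counts in Tg vehicle mice and 31.4 to 49.7 in N-Tg vehicle mice. The neutrophil marker Ly6g had 7.57 to 31.9 in Tg vehicle mice and 4.48 to 14.8 in N-Tg vehicle mice. The macrophage markers Cd163 and Siglec1 summed to 48.7 to 130.5 in Tg vehicle mice and 36.3 to 68.8 in N-Tg vehicle mice. All these ranges overlapped between the groups.

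Apoptosis and death receptor genes rose in 4 of 38 members (median log2 change 0.12, -0.16 with centring and -0.22 with quantile normalization), and in 2 with either scaling or without Tg vehicle mouse 3 or N-Tg vehicle mouse 3. The share of 10.5% was below the 18.7% of all genes tested. Bcl2a1a, a pro-survival member of the Bcl2 family in blood cells with near-identical paralogues that its probe may read too, had 405, 528, 911 and 330.4 normalized counts in Tg vehicle mice and 78.4, 52.6, 52.9 and 80.2 in N-Tg vehicle mice. Tnfrsf1a, the main receptor of TNF, rose by 2.20-fold (adjusted p = 0.00227). Casp8, the initiator caspase below such receptors, was 1.69-fold higher, and its call ended with centring (adjusted p = 0.058), with quantile normalization (adjusted p = 0.764) and without Tg vehicle mouse 2 or 3 or N-Tg vehicle mouse 1 or 2 or 3 (adjusted p 0.0553 to 0.0705). The mitochondrial arm includes the Bcl2 family, and so the called Bcl2a1a. Its members Bax, Bak1, Bad, Bcl2l1, Casp9 and Cycs were not called, with log2 changes from -0.10 to 0.16. They were chosen after their values were seen and do not cover the whole arm.

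Functions that all cells share had no called gene in 4 lists. Of the DNA damage genes 0 of 44 passed (median log2 change 0.04), of the chromatin genes 0 of 55 (0.05), of the autophagy genes 0 of 15 (0.02) and of the cell cycle genes 0 of 25 (0.18). Under centring these medians were -0.24, -0.24, -0.27 and -0.10, and under quantile normalization -0.35, -0.21, -0.18 and -0.35. Centring called 7 of 44 DNA damage, 9 of 55 chromatin, 6 of 15 autophagy and 2 of 25 cell cycle genes lower, against 12.7% of all genes tested. The direction of these lists thus depended on the scale. Atg3, a conjugating enzyme of autophagy, had a log2 change of -0.13 (adjusted p = 0.303) on the authors' scale and -0.42 with centring (adjusted p = 0.00192).

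Ribosomal protein and translation genes had 1 of 12 called, and all 12 had a positive change, with a median of 0.16 on the authors' scale, 0.10 with quantile normalization and -0.13 with centring. Rpl29, of the large subunit, had 5928, 6165, 6954 and 6309.5 normalized counts in Tg vehicle mice and 5371, 5635, 5486 and 5260.1 in N-Tg vehicle mice. The groups did not overlap, and its 1.16-fold difference (adjusted p = 0.0328) was the smallest of the called genes. With centring its log2 change was -0.06 (adjusted p = 0.563), and its call also ended without Tg vehicle mouse 3 or 4 or N-Tg vehicle mouse 1 or 3 or 4 (adjusted p 0.0653 to 0.101). Oxidative stress genes had a median log2 change of 0.30 (-0.16 with quantile normalization), and 2 of 12 rose (16.7%, near the 18.7% of all genes tested). Ncf1, a subunit of the phagocyte NADPH oxidase, rose by 3.06-fold and Hmox1, which degrades haem, by 1.72-fold. Hmox1 did not pass with either scaling (adjusted p = 0.103 and 0.466) or without Tg vehicle mouse 2 or 3 or 4 or N-Tg vehicle mouse 1 or 2 or 3 (adjusted p 0.0501 to 0.145). Sod2, the mitochondrial superoxide dismutase, had a log2 change of -0.32 (adjusted p = 0.15), and -0.61 with centring (adjusted p = 0.0196). Of the genes mutated in inherited neurodegeneration, 4 of 14 rose, the microglial genes Tyrobp, Trem2, Grn and Csf1r, and the median of the list was 0.07, or -0.21 with centring and -0.13 with quantile normalization. The neuronal or widely expressed members Mapt, Nefl, Pink1, Optn and Sqstm1 were not called, with log2 changes from -0.04 to 0.13.

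The Tg vehicle mice were less alike than the N-Tg vehicle mice. Over the 130 called genes the median SD of the log2 values was 0.376 in Tg vehicle and 0.227 in N-Tg vehicle mice, and it was larger in Tg vehicle mice in 103 genes. Over the 565 genes not called the medians were 0.235 in Tg vehicle and 0.191 in N-Tg vehicle mice, and it was larger in Tg vehicle mice in 355. Mouse 3 was the highest Tg vehicle mouse in 103 of the called genes and mouse 1 the lowest in 61. Mouse 3 also had the highest scale factor, and after centring it was highest in 68. Plaque-associated genes followed this order, with list medians of 1.32, 2.44, 3.13 and 2.30 in Tg vehicle mice 1 to 4. The other called genes had their highest value elsewhere, and after centring 26 peaked in mouse 1, 22 in mouse 2 and 14 in mouse 4. On the authors' scale Zbp1, Tlr7, Ccl5, Inpp5d, Maff, Il6ra and Mertk were among 8 genes that peaked in mouse 1, and Cd74, Cxcl10, C1qb, Rsad2 and Gbp2 were among 11 genes that peaked in mouse 4.

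**Figure D4:**
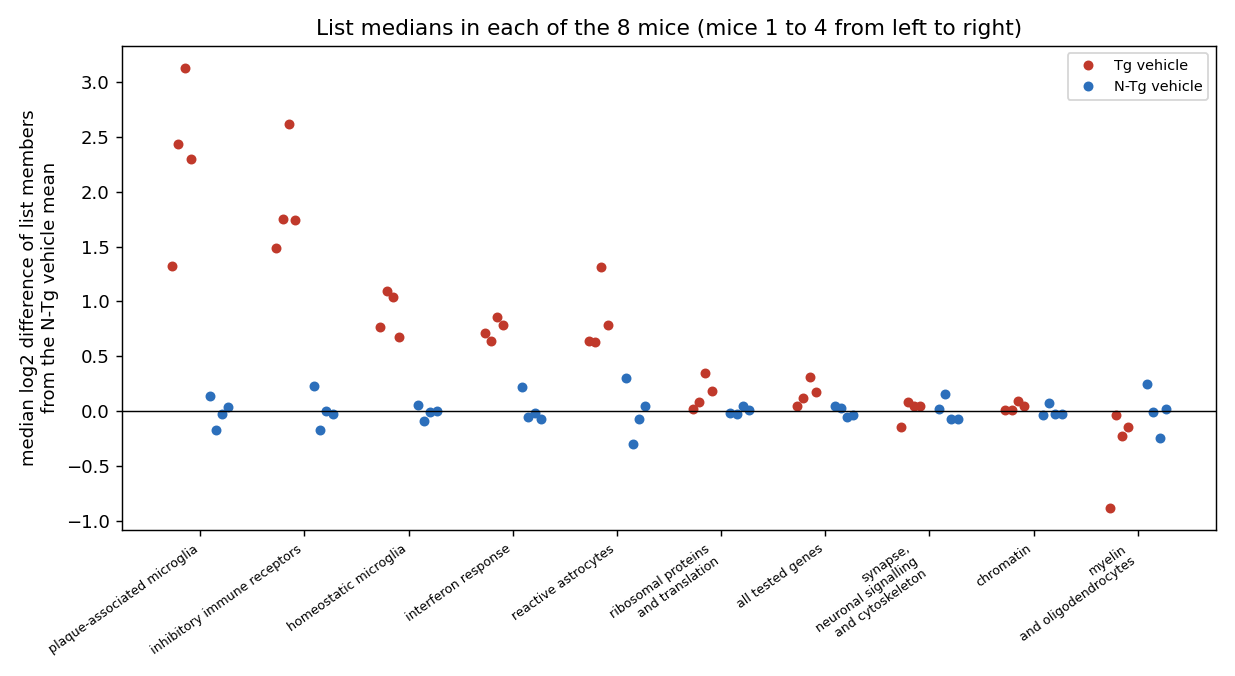
Median over the members of a gene list of the log2 value in each mouse relative to the N-Tg vehicle mean (y axis), with the 4 Tg vehicle mice to the left of the 4 N-Tg vehicle mice. Plaque-associated genes had medians of 1.32, 2.44, 3.13 and 2.30 in Tg vehicle mice 1 to 4, and myelin genes were lowest in Tg vehicle mouse 1, at -0.88.

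The comparison was repeated within the mice with high and with low Y-linked counts, each with 2 Tg vehicle and 2 N-Tg vehicle mice. N-Tg vehicle mouse 4, with high Ttr, is among those with high counts, and Tg vehicle mouse 1, also with high Ttr, among those with low counts. All 130 called genes had a positive change in both sets, with a median log2 change of 1.30 in the mice with high counts and 1.38 in those with low counts. The genes were called on these same mice, and for the 122 with separate groups a positive change in both sets was fixed in advance. With high counts 109 genes were called higher and 10 lower (15.7% and 1.44% of those tested), and 87 of the 109 were among the 130. With low counts 0 were called by limma, while 109 genes were higher and 7 lower at an unadjusted p under 0.05. A fit with Y-linked status as a block called 130 genes higher and 0 lower, and leaving out both mice with high Ttr gave 122 and 0. Of the 130 genes, 37 had an N-Tg vehicle mean at or below 33.5 normalized counts, the highest Uty value in the mice with low Y-linked counts, so their folds are less certain. The other called genes included 64 that were at least 2-fold higher.

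**Figure D5:**
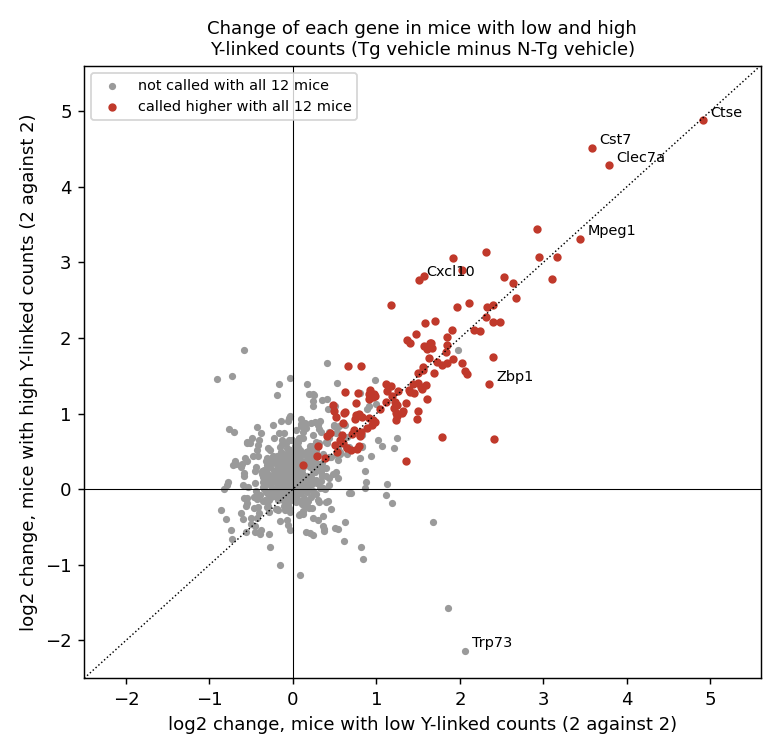
Log2 change, Tg vehicle minus N-Tg vehicle, of each tested gene in the mice with low Y-linked counts (x axis) and in the mice with high Y-linked counts (y axis), 2 Tg vehicle against 2 N-Tg vehicle mice in each. The 130 genes called over all mice lie above 0 on both axes, which was fixed in advance for the 122 with separate groups.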

How the data were processed

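The deposited table holds signal values, nCounter counts of 770 transcripts that the authors scaled by the geometric mean of 10 housekeeping genes, per the labels' protocols. None of these 10 is in the table, and the sources used here name no software or background step. Symbols were matched to RefSeq names (749 as current names, 7 as synonyms), and 593 genes had a promoter. Dividing each mouse's values by 1 factor gave whole numbers throughout (100% within 0.01), whose sums are the total counts. These totals set the counting error, while the error of a comparison comes from the spread between mice. Values of mice in a group correlated at 0.967 to 0.991 over 12 pairs, and no 2 samples were the same.

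Log2 of the value plus 1 was fitted with limma 3.58.1 in R 4.3.3 for genes with a mean of at least 20. All 12 mice in 3 groups entered the fit, with 9 residual degrees of freedom and eBayes with a trend on the mean level. The contrast was Tg vehicle minus N-Tg vehicle, and folds are on the scale of value plus 1. A gene was called where its adjusted p (Benjamini-Hochberg) was under 0.05. Values in a mean ± are SD. The labels name each sample as a mouse.

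The members and lists were chosen with earlier results of these data known. Genes named were the 12 called genes with the largest change, the 10 with the smallest p, for each list the 3 called members that changed most (2 with the smallest p in a list without calls), up to 15 called genes in no list, the 8 with the smallest p and a negative change, and Ttr, Uty, Kdm5d, Apoe, Bdnf, Slc17a7 and Slc17a6. Some were left out for space, and some items are not reported here. Genes named with values outside this rule, such as Vim, Serpina3n, Relb, Itgav and Cycs, and the genes named as not called, were chosen after their values were seen. Other settings were pseudocounts of 0.1 and 10, no filter, a minimum of 50, median centring, quantile normalization, no variance trend, the 8 mice alone, the mouse number as a block, each mouse left out in turn, the Y-linked and Ttr settings, and voom weights on the whole numbers, which were chosen after seeing the data. The procedure was tested on simulated data. Mouse numbers were checked for pairing, as the closing section gives. Python 3.11.15 and matplotlib 3.10.9 drew the figures.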

Additional observations from a re-analysis of the deposited data

Results flagged for a closer look

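In 9 of 208 groups of 4 mice checked, over 104 named genes, 1 mouse stood apart from the other 3 on the log2 scale by Dixon's ratio at its 95% critical value. Chance alone gives about 1 in 20 such groups. Ctse was lowest in N-Tg vehicle mouse 3, at 17.9 normalized counts, and Cd86, a costimulatory ligand, was also lowest in that mouse, at 35.8. In N-Tg vehicle mouse 1 Btk was highest, at 40.9, as were C1qa, at 1186, and Tgfb1, at 158. Ncf1 was lowest in N-Tg vehicle mouse 2, at 77.4. Among Tg vehicle mice, Grm3, a metabotropic glutamate receptor, was lowest in mouse 1, at 1487, Tnfrsf1a was highest in mouse 3, at 704, and Ttr was highest in mouse 1, at 4269.7. The call of Ctse, Btk, C1qa, Cd86, Tgfb1, Tnfrsf1a and Ncf1 held without each mouse in turn, whereas Grm3 and Ttr were not called.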

How the results depend on the processing

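The counts of 130 genes higher and 0 lower became 102 and 88 with median centring and 80 and 104 with quantile normalization. They were 109 and 10 in the mice with high Y-linked counts alone and 0 and 0 in those with low counts, each of 2 mice against 2. Over the 8 fits that left out 1 mouse each, 97 to 148 genes were higher and 0 to 1 lower, and 93 of the 130 passed in all 8. The single lower calls were Bdnf without Tg vehicle mouse 4 and Mal without N-Tg vehicle mouse 3. Under pseudocounts of 0.1 and 10, no filter, a minimum of 50, no variance trend, the 8 mice alone, Y-linked status as a block, no mice with high Ttr and voom weights, 108 to 138 genes were higher and 0 lower. With the mouse number as a replicate block 125 genes were higher and 0 lower. The numbers only name the mice. Deviations of mice with the same number correlated at -0.37, 0.004, 0.0009 and -0.12, and 0 of 4 mice correlated best with their own number. The planned edgeR fits were not run, and voom weights on the whole numbers took their place.

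Of the genes named by the rule, the following turned sign, none past the threshold on the other side, and the cause was not tested beyond the shift of each scaling. With median centring the log2 change was -0.095 for Sftpd, -0.012 for Trp53, -0.15 for Ehmt2, -0.11 for Brd2 and -0.065 for Rpl29. With quantile normalization it was -0.019 for Pecam1, -0.34 for Sftpd, -0.16 for Cd69, -0.028 for Trp53, -0.11 for Uty, -0.19 for Pole, -0.26 for Hells and -0.064 for Lacc1. Grm3 was 0.30 and Kdm5d 0.13 in the mice with high Y-linked counts, and Slc17a6 was -0.73 and Ttr 2.14 in those with low counts. Without both mice with high Ttr, Slc17a6 was -0.23, Slc17a7 0.0036 and Kdm5d 1.27. With 1 mouse left out, Grm3 ran from -0.30 to 0.026, Sftpd from -0.045 to 0.34, Slc17a6 from -0.15 to 0.68, Ttr from -2.25 to 0.80, Uty from -0.53 to 1.11 and Kdm5d from -0.90 to 0.63.

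Precision is limited by 4 mice a group, by a scale factor that moved with genotype, and by counts near the lowest of the panel in 37 called genes. The housekeeping genes were not in the table, so the authors' scaling could not be checked against them.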

Other observations

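A further 28 genes lay higher in all 4 Tg vehicle mice than in all 4 N-Tg vehicle mice without passing the test. Those named here were chosen after their values were seen. Nqo1, a quinone reductase induced by NRF2, had 235, 185, 241 and 198 normalized counts in Tg vehicle mice and 147, 152, 136 and 171 in N-Tg vehicle mice (adjusted p = 0.0745). Rps10 and Rps21, proteins of the small ribosomal subunit, had small differences (log2 change 0.24 each). Rps10 had 2022 to 2708 in Tg vehicle mice and 1894 to 2016 in N-Tg vehicle mice, and Rps21 had 19849 to 24265 in Tg vehicle mice and 16790.0 to 19501 in N-Tg vehicle mice. The 1 gene with all 4 Tg vehicle mice below all 4 N-Tg vehicle mice was AI464131, at 441, 527, 478 and 528 in Tg vehicle mice and 545, 616, 547 and 538 in N-Tg vehicle mice (log2 change -0.19, adjusted p = 0.212).

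In the mice with high Y-linked counts alone, 10 genes were called lower in Tg vehicle than in N-Tg vehicle mice, among them Amigo2, Bok, Gria1, Mal, Myrf, Parp1, Prkce, Tmcc3 and Trp73. Mal, Myrf and Tmcc3, of the myelin list, were also negative in the mice with low counts (-0.27, -0.038 and -0.07), whereas Amigo2, Bok, Gria1, Parp1, Prkce and Trp73 were positive there (0.21 to 2.06). The high-count N-Tg vehicle mice include 1 with high Ttr, and so do the low-count Tg vehicle mice. Trp73, the p53 family member p73, had 98.3, 104, 29.8 and 38.9 normalized counts in Tg vehicle mice 1 to 4, against 119, 26.8, 20.6 and 198 in N-Tg vehicle mice 1 to 4. N-Tg vehicle mice 1 and 4 had the most and N-Tg vehicle mice 2 and 3 the least, so the Tg vehicle mice lay between them. Over all mice its log2 change was -0.04 ± 0.67 SE (adjusted p = 0.979). Of the 695 genes tested, 57 were lower under both other scalings. They included 15 of the 31 genes of the myelin list, 8 of the 55 of the chromatin list and 6 of the 44 of the DNA damage list. The chromatin and DNA damage lists are the largest of the 33.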
